A study of Homo sapiens with 12 samples.

Results

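AXIN1, AXIN2, LGR5, NKD1, RNF43, ZNRF3, TCF7, LEF1, GLUL and TBX3 are components, feedback regulators and reported target genes of the Wnt and beta-catenin pathway. They were taken by gene name from a table of 22963 gene names, and all 10 were present in it. Their expression was examined in 12 RNA-seq libraries of the human hepatocellular carcinoma (HCC) cell lines PLC/PRF5 and MHCC97H, in which the transcription factor EGR1 had been manipulated.

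Without a Wnt ligand, a cytoplasmic destruction complex built on the scaffold AXIN1, with APC, GSK3 and casein kinase, marks beta-catenin for degradation. A Wnt ligand bound to Frizzled and LRP5 or LRP6 halts this, and beta-catenin then enters the nucleus and activates genes together with the DNA-binding factors of the TCF and LEF family. Several of the activated genes, such as AXIN2, NKD1, RNF43 and ZNRF3, restrain the pathway again. In the liver the pathway is active around the central vein, where hepatocytes express GLUL, and in HCC it is often altered by mutation.

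PLC/PRF5 cells carried either the empty vector or a lentiviral plasmid in which a CMV promoter drives the EGR1 coding sequence. MHCC97H cells were either the parental line, with no edit, or cells labelled EGR1 knockout. The latter came from CRISPR/Cas9 editing with a lentiviral Cas9 plasmid, and the study grew its edited cells as single clones, without stating which clone was sequenced. All 4 groups were grown in DMEM with 10% fetal bovine serum, with no drug or time course given in the labels. Each group has 3 libraries labelled as biological replicates, and the p-values measure the spread between them. Whether the 3 libraries labelled knockout came from the same clone is not stated, so their spread may not include that between clones. In the comparison of labelled knockout with parental libraries, clone, lentiviral Cas9 treatment and edit cannot be told apart. An exact permutation test of 3 against 3 libraries cannot go below p = 0.1, so it cannot reach 0.05.

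Expression is given as FPKM, the fragments of a gene divided by its transcript length and by the size of the library in mapped fragments. The libraries had been treated with duplex-specific nuclease, and its effect on the levels of different genes was not tested. Library totals of FPKM ran from 376335 to 437652, and between 5407 and 6624 gene names were listed at 0. The number of reads behind these values is unknown, so no counting error is given. Of 10 hepatocyte markers, 9 had a group mean of at least 1 FPKM in both PLC/PRF5 groups. In MHCC97H cells, 5 (parental) and 6 (labelled knockout) reached 1 FPKM, and the summed level of the list was 21.6 to 28.0 FPKM in parental libraries and 59.6 to 62.9 FPKM in the libraries labelled knockout, against 1777 to 1919 FPKM with the vector and 2677 to 3634 FPKM with EGR1 in PLC/PRF5. Summed levels over all groups were 1.05 to 10.9 FPKM for 6 fibroblast and stellate markers, 1.503 to 8.55 FPKM for 5 endothelial markers and 27.1 to 216 FPKM for 6 leukocyte markers. Of these, KDR, TEK and PTPRC were at 0 in every PLC/PRF5 library and CD3E in every MHCC97H library. LYZ and CD68 made up most of the leukocyte sum in PLC/PRF5, with vector means of 142 and 37.6 FPKM. In the libraries labelled knockout, CD68 (53.8 against 28.5 FPKM), CD14 (1.47 against 0.676 FPKM) and KDR (1.80 against 0.504 FPKM) were higher and LUM (1.18 against 8.68 FPKM) lower than in parental libraries. CD14 and KDR reached the mean of 1 FPKM needed for the tests below only through the libraries labelled knockout. The part of all these markers in the results below was not tested.

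EGR1, an immediate early zinc finger transcription factor, had an FPKM of 1.97, 1.43 and 2.03 in the vector libraries and 56.3, 50.2 and 52.2 in the EGR1 libraries. In MHCC97H cells its FPKM was 20.2, 23.1 and 21.2 in the parental libraries and 35.2, 50.3 and 32.9 in the libraries labelled knockout. Every library labelled knockout thus had more EGR1 mRNA than every parental library, against the direction of the label. The log2 fold change was 0.83 (SE 0.15, limma with Benjamini-Hochberg adjustment, adjusted p = 0.00126). After a correction for transcript GC content and length it was 0.42 (limma with Benjamini-Hochberg adjustment, adjusted p = 0.0608). The study reports that its knockout clones were checked by western blot and DNA sequencing. An mRNA value for the whole gene does not show whether its coding sequence was disrupted. Each direction below in MHCC97H is therefore one between libraries by label, with EGR1 mRNA higher in those labelled knockout.

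EGR1 binds a GC-rich element, and TCF and LEF factors bind a short element with the core CTTTG. The 250 bases before a transcription start, from RefSeq on GRCh38.p14, were available for 5 of the 10 genes: GLUL, LEF1, TCF7, AXIN1 and RNF43. Those of AXIN1 and of the second TCF7 start held matches, and LEF1 is printed beside them as the member that was listed at 0 in 1 of the cell lines. Capitals mark the matches. The letters searched, on both strands, were GCGTGGGCG and GCGGGGGCG for EGR, and CTTTGAT or CTTTGAA and CTTTGTT or CTTTGTA for TCF and LEF.
AXIN1, chr16:352724-352973, minus strand: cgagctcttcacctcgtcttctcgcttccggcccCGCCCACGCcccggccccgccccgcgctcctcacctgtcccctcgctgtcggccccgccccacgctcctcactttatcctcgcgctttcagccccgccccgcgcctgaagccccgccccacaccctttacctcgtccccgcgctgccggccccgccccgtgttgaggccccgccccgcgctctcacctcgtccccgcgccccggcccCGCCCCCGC
TCF7, second start, chr5:134123368-134123617, plus strand: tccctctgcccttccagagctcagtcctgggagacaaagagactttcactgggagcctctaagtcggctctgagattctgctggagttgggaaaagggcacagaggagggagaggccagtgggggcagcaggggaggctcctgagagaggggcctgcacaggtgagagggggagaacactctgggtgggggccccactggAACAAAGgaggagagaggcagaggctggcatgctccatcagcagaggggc
LEF1, chr4:108166302-108166551, minus strand: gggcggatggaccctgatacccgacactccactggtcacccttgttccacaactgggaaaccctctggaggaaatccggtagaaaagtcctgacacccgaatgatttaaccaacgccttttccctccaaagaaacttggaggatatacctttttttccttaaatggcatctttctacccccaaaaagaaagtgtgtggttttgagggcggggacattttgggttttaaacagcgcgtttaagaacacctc
The AXIN1 window held both EGR letters, each read on the opposite strand, beginning 216 and 9 bases before the start. Of 35116 windows of this length, 5.37% held at least 1 EGR match and 0.592% at least 2. The AXIN1 window is also rich in GC, at 77.6%, against a median of 58.0% over all windows. The TCF7 window held CTTTGTT, read on the opposite strand, beginning 50 bases before the start, and 11.96% of all windows held at least 1 of the TCF and LEF letters. No match overlapped another, and the LEF1 window, like those of GLUL and RNF43 and the first TCF7 start, held none of the letters. The windows of LEF1, GLUL and TCF7 lie inside the annotated genes, before internal starts. The bases before the outer ends of these genes were therefore not searched. The matches are a description of letters and not of binding.

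**Figure D1:**
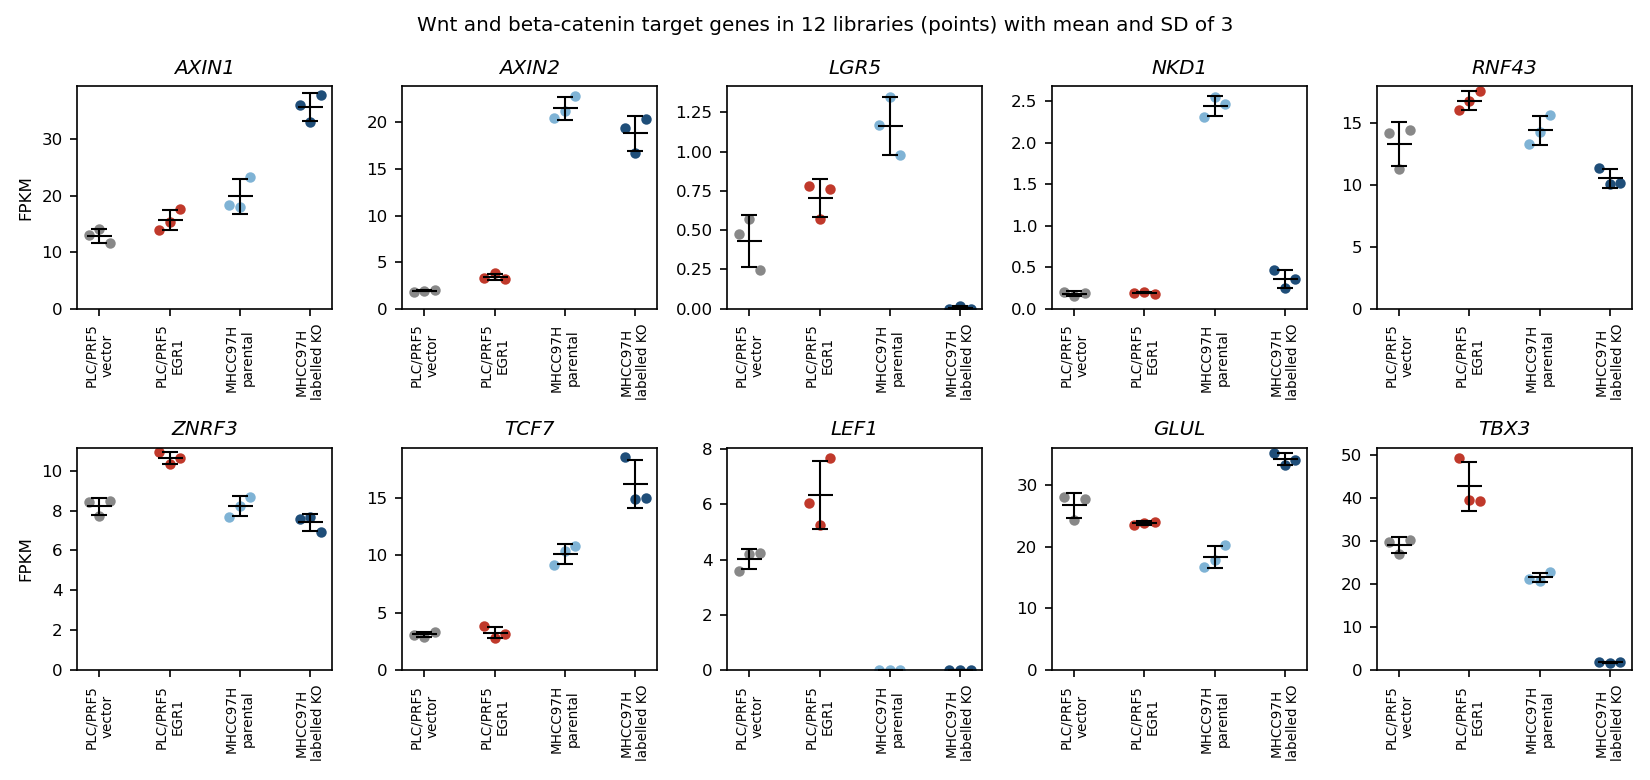
FPKM (vertical axes, linear from 0) of each of the 10 genes in the 4 groups (horizontal axes), with 1 point per library and a bar for the mean with the SD of 3 libraries. TBX3, NKD1 and LGR5 lie near 0 in the libraries labelled knockout and well above it in the parental libraries, while LEF1 is at 0 in all 6 MHCC97H libraries.

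In PLC/PRF5 cells, AXIN2, ZNRF3, LEF1 and TBX3 rose with EGR1 overexpression, each by less than 2-fold, and no member fell, although GLUL was called lower after the GC and length correction described below. In MHCC97H cells, TBX3, NKD1 and RNF43 were lower and AXIN1, TCF7 and GLUL were higher in the libraries labelled knockout. Tests were made on log2(FPKM + 1) by limma, with its variance trend, for the genes that averaged at least 1 FPKM in the 6 libraries compared. They were 2-sided, with the Benjamini-Hochberg adjustment over all genes and a threshold of 0.05. Because 1 is added, a fold change of a gene of low level is understated. In bulk RNA, fewer cells of a kind and less RNA per cell cannot be told apart.

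Of the 8 members tested in PLC/PRF5, 4 were higher and 0 lower, against 29.6% of 11671 genes called in this comparison, 19.2% of them higher and 10.4% lower. The median log2 fold change of the 8 was 0.33, against 0.09 over all genes tested. Of the 8 tested in MHCC97H, 3 were higher and 3 lower in the libraries labelled knockout, where 66.3% of 11577 genes were called, 34.8% higher and 31.5% lower. The median of these 8 was -0.16, against 0.02 over all genes. Being called was thus common among all genes in MHCC97H. Past 2-fold and the threshold were 0 of the 8 in PLC/PRF5, where 1.77% of genes were. With GC and length correction, 5 members were higher and 1 lower in PLC/PRF5, against 33.8% of genes called, and 3 were higher and 5 lower in MHCC97H, against 47.5%. LGR5 was below the filter in both comparisons, NKD1 in PLC/PRF5 and LEF1 in MHCC97H.

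In the MHCC97H comparison, GC content and length of the longest transcript accounted for 52.5% of the spread (variance) in log2 fold change over 10806 genes, and for 17.9% over 10829 genes in PLC/PRF5. Genes rich in GC were higher in the libraries labelled knockout (Spearman's rho 0.75 across genes, which are not independent replicates). The transcripts of the members range from 43.8% GC (LGR5) to 63.8% (AXIN1), against a median of 48.3% over the genes tested in MHCC97H. Values corrected for GC content and length are therefore given where they moved a member, although such a correction also removes any change in the cells that follows GC content. Of the calls made in PLC/PRF5, 64.8% were higher without correction, 48.6% with it and 46.0% after quantile normalization. In MHCC97H, 52.5% of calls were higher, and 41.5% after scaling to a common total, which moved the median log2 fold change of all genes by -0.13.

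**Figure D2:**
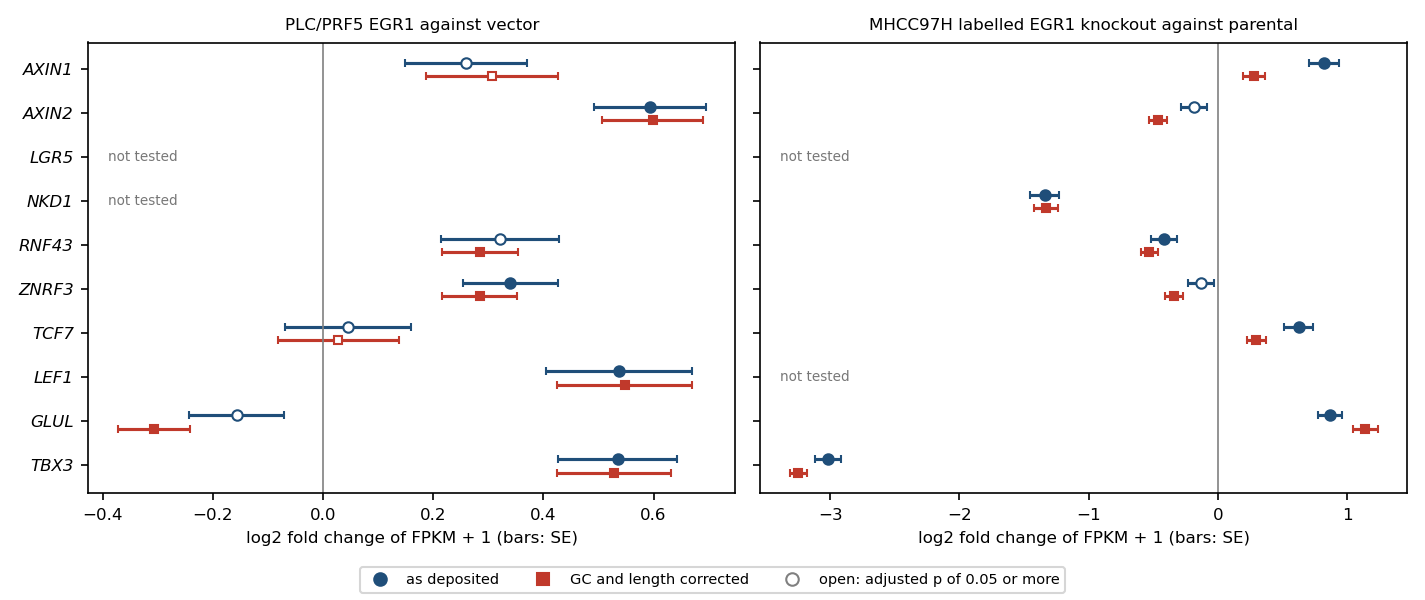
Log2 fold change of FPKM + 1 (horizontal axes) with its SE for each member in PLC/PRF5 (left) and MHCC97H (right), as deposited (circles) and after GC and length correction (squares), with open symbols where the adjusted p was 0.05 or more. TBX3 in MHCC97H stands far to the left at -3.02, and AXIN1 and TCF7 there move toward 0 with the correction, to 0.28 and 0.30.

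AXIN1 and AXIN2 encode the paralogous scaffolds of the destruction complex. AXIN1 is expressed broadly, and AXIN2 is a direct beta-catenin target widely used as a readout of the pathway. AXIN1 lies on the minus strand at chr16:287440-352673 (GRCh38, GENCODE release 29). Its FPKM was 13.03, 14.1 and 11.6 with the vector and 14.0, 15.4 and 17.6 with EGR1, so the groups overlap. The log2 fold change was 0.26 (SE 0.11, limma with Benjamini-Hochberg adjustment, adjusted p = 0.108). In MHCC97H cells it was 18.3, 17.9 and 23.3 in parental libraries and 36.1, 33.1 and 37.8 in those labelled knockout. All 3 of the latter are above all parental libraries. The log2 fold change was 0.82 (SE 0.11, limma with Benjamini-Hochberg adjustment, adjusted p = 3.48e-04), and 0.28 after GC and length correction (adjusted p = 0.0247). The 10 tested genes nearest to AXIN1 had a median of 0.69 in the same comparison, and 0.13 after correction.

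AXIN2 lies at chr17:65528563-65561647 on the minus strand. Its FPKM was 1.84, 1.94 and 1.98 in vector libraries and 3.25, 3.81 and 3.17 in EGR1 libraries. Each EGR1 library was above each vector library, with a 1.78-fold ratio of the means. AXIN2 rose by a log2 fold change of 0.59 (SE 0.10, limma with Benjamini-Hochberg adjustment, adjusted p = 0.00388), and by 0.60 after GC and length correction. In MHCC97H cells its FPKM was 20.5, 21.2 and 22.9 in parental libraries and 19.3, 16.7 and 20.3 in those labelled knockout. The groups do not overlap, as in 71.8% of all genes in this comparison, but the difference did not pass the test (log2 fold change -0.19, SE 0.10, limma with Benjamini-Hochberg adjustment, adjusted p = 0.124). It passed, in the same direction, after scaling to a common total (-0.33, adjusted p = 0.0142), after quantile normalization (-0.29, adjusted p = 0.0291) and after GC and length correction (-0.46, adjusted p = 0.00106).

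NKD1, at chr16:50548330-50649249 on the plus strand, encodes an inhibitor that acts on Dishevelled and is itself induced by the pathway. It was at 0.205, 0.149 and 0.193 FPKM with the vector and 0.193, 0.201 and 0.182 FPKM with EGR1, below the filter and overlapping. In MHCC97H its FPKM was 2.31, 2.55 and 2.46 in parental libraries and 0.469, 0.252 and 0.361 in those labelled knockout, a level 6.78-fold higher in the parental mean. Its log2 fold change was -1.34 (SE 0.11, limma with Benjamini-Hochberg adjustment, adjusted p = 3.80e-05), which moved little with GC and length correction (-1.33). Only 8.89% of genes passed the threshold with a change past 2-fold in either direction in this comparison, and of the members TBX3 and NKD1 were among them. NKD1 passed the filter on low values only through the parental libraries.

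LGR5, RNF43 and ZNRF3 act at the receptors. RNF43 and ZNRF3 are paralogous ubiquitin ligases that remove Frizzled from the cell surface, and LGR5 binds R-spondins, which lift that removal. LGR5 is at chr12:71439770-71586310 on the plus strand. Its FPKM was 0.475, 0.568 and 0.248 with the vector and 0.783, 0.568 and 0.763 with EGR1, with means of 0.430 ± 0.164 and 0.705 ± 0.119 (SD, n = 3). The lowest EGR1 library and the highest vector library lie at nearly the same level. Tested without the filter, this difference did not pass (limma with Benjamini-Hochberg adjustment, adjusted p = 0.142). In MHCC97H cells it was 1.17, 1.35 and 0.976 in parental libraries, and 0, 0.0175 and 0 in those labelled knockout, where 2 of 3 libraries listed it at 0. On the log2(FPKM + 1) scale the means differed by -1.10. Without the filter this passed (limma with Benjamini-Hochberg adjustment, adjusted p = 5.62e-04), as did 8051 of 18820 genes tested so. LGR5 was well above 0 only in the parental libraries, and values at the floor have little spread. LGR5 overlaps TSPAN8 on the opposite strand, whose mean was 11.1 FPKM in parental libraries and 5.78 FPKM in those labelled knockout. Reads of these 2 genes may have been assigned to either. LGR4, the broadly expressed relative of LGR5, was at 19.9 ± 2.84 and 20.3 ± 3.97 FPKM (SD, n = 3) in the same 2 groups and did not pass (log2 fold change 0.02, limma with Benjamini-Hochberg adjustment, adjusted p = 0.907), but was called higher in those labelled knockout after GC and length correction (0.42, adjusted p = 0.00846).

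RNF43 lies at chr17:58352500-58417595 on the minus strand. It was at 14.2, 11.3 and 14.5 FPKM with the vector and at 16.0, 16.7 and 17.6 FPKM with EGR1. The groups do not overlap, as in 47.7% of all genes in PLC/PRF5, and the log2 fold change of 0.32 (SE 0.11) narrowly missed the threshold (limma with Benjamini-Hochberg adjustment, adjusted p = 0.0520). It passed with all 12 libraries in 1 fit (adjusted p = 0.0296) and after GC and length correction (0.28, adjusted p = 0.0141). In MHCC97H its FPKM was 13.3, 14.3 and 15.6 in parental libraries and 11.4, 10.1 and 10.1 in those labelled knockout. RNF43 was lower in all 3 of the latter, with a log2 fold change of -0.42 (SE 0.10, limma with Benjamini-Hochberg adjustment, adjusted p = 0.00518). In the annotation RNF43 overlaps SUPT4H1 on the same strand, whose mean was 30.1 FPKM in parental libraries and 28.6 FPKM in those labelled knockout, and reads of the 2 genes may have been assigned to either.

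ZNRF3, at chr22:28883592-29057487 on the plus strand, was at 8.45, 7.73 and 8.46 FPKM with the vector and at 10.96, 10.3 and 10.6 FPKM with EGR1. Every EGR1 library was above every vector library. ZNRF3 rose by a log2 fold change of 0.34 (SE 0.09, limma with Benjamini-Hochberg adjustment, adjusted p = 0.0190), and the call was lost after scaling to a common total (adjusted p = 0.0605), after quantile normalization (adjusted p = 0.102) or without EGR1 replicate 2 (0.0616), EGR1 replicate 3 (0.0684) or vector replicate 3 (0.0504). In MHCC97H it was at 7.70, 8.24 and 8.69 FPKM in parental libraries and 7.57, 7.70 and 6.93 FPKM in those labelled knockout. These ranges touch, and the log2 fold change of -0.13 did not pass (limma with Benjamini-Hochberg adjustment, adjusted p = 0.257). After GC and length correction it was -0.34 (adjusted p = 0.00525).

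TCF7 and LEF1 encode DNA-binding partners of beta-catenin and are also reported targets of the pathway. TCF7 lies at chr5:134114711-134151865 on the plus strand and LEF1 at chr4:108047545-108168956 on the minus strand. TCF7 was at 3.06, 2.91 and 3.36 FPKM with the vector and 3.80, 2.83 and 3.14 FPKM with EGR1, groups that overlap (log2 fold change 0.05, SE 0.11, limma with Benjamini-Hochberg adjustment, adjusted p = 0.784). In MHCC97H cells TCF7 was at 9.12, 10.4 and 10.8 FPKM in parental libraries and 18.6, 14.9 and 15.0 FPKM in those labelled knockout. It was higher in all 3 of the latter, 1.60-fold by the means. The log2 fold change was 0.62 (SE 0.11, limma with Benjamini-Hochberg adjustment, adjusted p = 0.00139), and 0.30 after GC and length correction (adjusted p = 0.0140). TCF7 overlaps SKP1, a ubiquitin ligase subunit on the opposite strand, whose mean was 35.5 FPKM in parental libraries and 20.9 FPKM in those labelled knockout. Whether strand was used in counting is not given in the sources used here.

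LEF1 was listed at 0 in all 6 MHCC97H libraries. In PLC/PRF5 its FPKM was 3.59, 4.21 and 4.22 with the vector and 6.04, 5.26 and 7.67 with EGR1. All EGR1 libraries were above all vector libraries, 1.58-fold by the means, and LEF1 rose by a log2 fold change of 0.54 (SE 0.13, limma with Benjamini-Hochberg adjustment, adjusted p = 0.0169). The call was narrowly lost without the filter on low values (adjusted p = 0.0536), after quantile normalization (0.0535), without EGR1 replicate 3 (0.0595) or without vector replicate 1 (0.0524). Of the other members of the family, TCF7L2 was at 12.3 ± 1.93 FPKM with EGR1 and 12.1 ± 2.92 FPKM with the vector (SD, n = 3), with a log2 fold change of 0.03 (limma with Benjamini-Hochberg adjustment, adjusted p = 0.898). In MHCC97H TCF7L2 was lower in the libraries labelled knockout, at 10.2 ± 0.497 against 16.9 ± 0.375 FPKM (SD, n = 3; log2 fold change -0.68, limma with Benjamini-Hochberg adjustment, adjusted p = 2.30e-04), while TCF7 was higher there. TCF7L1 was at 2.84 and 2.59 FPKM in these groups and did not pass (adjusted p = 0.428 by limma with Benjamini-Hochberg adjustment), and after GC and length correction its log2 fold change was -0.51 (adjusted p = 0.00282). In PLC/PRF5 it was below the filter, at 0.623 FPKM with EGR1 and 0.914 FPKM with the vector.

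GLUL encodes glutamine synthetase, which marks the hepatocytes around the central vein and is used as a marker of beta-catenin activity in HCC. It lies at chr1:182381704-182392206 on the minus strand. GLUL was at 28.1, 24.4 and 27.7 FPKM with the vector and at 23.5, 23.9 and 24.1 FPKM with EGR1. Each EGR1 library was below each vector library, but the log2 fold change of -0.16 (SE 0.09) did not pass (limma with Benjamini-Hochberg adjustment, adjusted p = 0.193). After GC and length correction it was -0.31 and passed (adjusted p = 0.00838). In MHCC97H cells GLUL was at 16.8, 17.9 and 20.2 FPKM in parental libraries and 35.2, 33.3 and 34.1 FPKM in those labelled knockout, 1.87-fold higher by the means. The log2 fold change was 0.87 (SE 0.09, limma with Benjamini-Hochberg adjustment, adjusted p = 9.29e-05), and 1.14 with correction. GLUL, with a transcript GC content of 44.3%, lies below the median of the genes tested. AXIN1 and TCF7, the other members higher in the libraries labelled knockout, lie above it at 63.8% and 54.9%. The members lower there also lie above it, TBX3 at 52.4%, NKD1 at 51.6% and RNF43 at 50.7%. So do AXIN2 (53.1%) and ZNRF3 (53.5%), which were not called.

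TBX3 encodes a T-box transcriptional regulator and is a reported beta-catenin target in liver tumors. It lies at chr12:114670254-114684164 on the minus strand. With the vector it was at 29.8, 27.0 and 30.2 FPKM, and with EGR1 at 49.3, 39.4 and 39.3 FPKM. All EGR1 libraries were above all vector libraries, and TBX3 rose 1.47-fold by the means (log2 fold change 0.53, SE 0.11, limma with Benjamini-Hochberg adjustment, adjusted p = 0.00759). In MHCC97H the parental libraries had 21.1, 20.8 and 22.7 FPKM and those labelled knockout 1.94, 1.63 and 1.78 FPKM. The parental mean was 12.1-fold higher, and of the members TBX3 had the change farthest from 0, at -3.02 (SE 0.10, limma with Benjamini-Hochberg adjustment, adjusted p = 5.25e-07) and -3.25 with GC and length correction. The 10 tested genes nearest to TBX3, all within 1682 kb, had a median log2 fold change of 0.39 there, between -0.58 and 1.24. After GC and length correction the median of these neighbours was 0.10. Whether the TBX3 locus itself was altered was not tested.

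The changes in the 2 lines were compared by the difference of the log2 fold changes, over all 12 libraries. Among the 7 members expressed above 0 in every group and past the filter, it was above 0 for TBX3, AXIN2, RNF43 and ZNRF3 and below 0 for GLUL, TCF7 and AXIN1, and 7 of 7 passed, where 63.8% of 12090 genes did, 33.4% with a higher and 30.4% with a lower change in PLC/PRF5. TBX3 and GLUL differed past 2-fold, as did 21.5% of genes. With GC and length correction 5 passed, against 50.5% of genes. Overexpression and editing are different manipulations, and EGR1 mRNA was higher in both the EGR1 libraries and those labelled knockout. For the latter, this did not pass with GC and length correction (0.42, limma with Benjamini-Hochberg adjustment, adjusted p = 0.0608).

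The parental MHCC97H and vector PLC/PRF5 libraries were compared for these levels, although cell line, vector and culture cannot be told apart. Calls were about as frequent among the members as among all genes. Of 9 members tested, 4 were higher and 3 lower in parental MHCC97H, where 79.8% of 12046 genes were called, 38.8% higher and 40.9% lower. The same counts held with GC and length correction, where 80.9% of genes were called. The groups did not overlap for 7 of the 9, against 81.0% of genes, and 4 were past 2-fold, against 36.8%. Of those 4, LEF1 and NKD1 passed the filter only through the line where they are high. AXIN2 was 11.2-fold higher, at 21.5 ± 1.23 against 1.92 ± 0.0715 FPKM (SD, n = 3; log2 fold change 2.95, SE 0.09, limma with Benjamini-Hochberg adjustment, adjusted p = 1.27e-08). NKD1 was 13.4-fold higher, at 2.44 ± 0.119 against 0.182 ± 0.0294 FPKM (SD, n = 3). TCF7 was 3.24-fold higher, and AXIN1 had a log2 fold change of 0.58 (limma with Benjamini-Hochberg adjustment, adjusted p = 0.00213). GLUL and TBX3 were lower, by log2 fold changes of -0.52 and -0.41 (-0.86 and -0.23 with GC and length correction), and LEF1 was listed at 0 against 4.01 ± 0.362 FPKM (SD, n = 3). The ubiquitin ligases RNF43 and ZNRF3 had near levels in the lines (log2 fold changes 0.11 and -0.00071, limma with Benjamini-Hochberg adjustment, adjusted p = 0.394 and 0.995). Of the other target genes listed, MYC was at 94.0 ± 2.01 FPKM in parental MHCC97H and 24.2 ± 1.78 FPKM in vector PLC/PRF5 (SD, n = 3), and CD44 at 49.7 ± 2.32 and 0.831 ± 0.211 FPKM. In the other direction, the transcription factors PROX1 and ASCL2 were at 0.753 ± 0.0526 FPKM and at 0 in parental MHCC97H, and at 6.87 ± 0.744 and 3.81 ± 0.866 FPKM in vector PLC/PRF5. Of 7 such targets tested, 3 were higher and 4 lower in parental MHCC97H, and of 6 extracellular inhibitors 4 were higher and 2 lower. The inhibitors DKK1, which binds LRP5 and LRP6, and NOTUM, which removes the lipid of Wnt ligands, were at 113 ± 12.7 and 3.23 ± 0.374 FPKM in parental MHCC97H, and at 20.4 ± 3.29 and 0.223 ± 0.0434 FPKM in vector PLC/PRF5. KREMEN2, a receptor of DKK proteins, was lower in parental MHCC97H, at 0.684 ± 0.187 against 1.99 ± 0.293 FPKM (log2 fold change -0.83, and -0.38 with GC and length correction). CD44, PROX1, ASCL2, NOTUM and KREMEN2 likewise passed the filter only through the line where they are high.

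The rest of the pathway was examined through lists of 112 genes, grouped by role. In PLC/PRF5, 51 were tested, of which 5 rose and 10 fell with EGR1, with a median log2 fold change of 0.03. In MHCC97H, 50 were tested, of which 18 were higher and 19 lower in those labelled knockout, and the median was 0.03. With GC and length correction 5 rose and 15 fell in PLC/PRF5, and 17 were higher and 15 lower in MHCC97H. Without correction, 29.6% of all genes were called in PLC/PRF5 (19.2% higher, 10.4% lower) and 66.3% in MHCC97H (34.8% higher, 31.5% lower). With correction, 33.8% and 47.5% of all genes were called.

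Among ligands and the proteins that process them, 0 of 3 tested passed in PLC/PRF5. In MHCC97H, 4 of 5 were higher and 1 lower in the libraries labelled knockout. PORCN, which attaches a lipid to Wnt proteins, was at 9.19 ± 0.779 FPKM there and 4.75 ± 0.746 FPKM in parental libraries (log2 fold change 0.83, and 0.23 with GC and length correction). WLS, which carries them to the cell surface, was at 18.8 ± 1.71 and 11.3 ± 0.870 FPKM (0.69, and 0.65 with correction). The ligand WNT7B was at 6.67 ± 0.972 and 3.04 ± 0.181 FPKM (SD, n = 3 each; 0.92, and 0.31 with correction), and WNT3 at 3.49 ± 0.349 and 2.10 ± 0.218 FPKM (0.54, and 0.34 with correction). WNT5A was the ligand that was lower, at 12.001 ± 1.61 and 16.8 ± 0.810 FPKM, a call lost with the correction (log2 fold change -0.46, then -0.05).

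Among receptors, 1 of 9 tested rose and 3 fell in PLC/PRF5 with EGR1, and with GC and length correction 0 rose and 6 fell. FZD2, a Frizzled receptor, was at 2.80 ± 0.499 FPKM with EGR1 and 7.14 ± 0.568 FPKM with the vector (log2 fold change -1.11, SE 0.12, limma with Benjamini-Hochberg adjustment, adjusted p = 5.20e-04). FZD9 and the co-receptor LRP5 also fell, by log2 fold changes of -0.72 and -0.77 (-0.48 and -0.71 with correction). LRP5 was at 40.1 ± 1.78 and 69.2 ± 8.43 FPKM (SD, n = 3). The other co-receptor, LRP6, rose (0.38), but not after correction (0.03). In MHCC97H, 2 of 9 receptors were higher and 4 lower in the libraries labelled knockout, and 3 and 2 with correction. LRP5 was at 90.6 ± 8.72 FPKM against 53.0 ± 5.57 FPKM in parental libraries (0.76, and 0.19 with correction). FZD6 was at 5.74 ± 1.24 against 11.4 ± 2.09 FPKM (-0.89, and -0.33 with correction), and the LRP6 call of -0.52 was lost with correction (0.10).

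Of the extracellular inhibitors, 1 of 4 tested fell in PLC/PRF5 and 3 of 5 were lower in the libraries labelled knockout. DKK3 was the inhibitor that fell in PLC/PRF5, to 7.40 ± 1.73 FPKM from 15.7 ± 1.39 FPKM (log2 fold change -1.01), and it was lower in MHCC97H too, at 19.3 ± 1.74 against 28.3 ± 3.06 FPKM (-0.53, and -0.87 with correction). NOTUM, itself a feedback target in several tissues, was at 0.147 ± 0.0578 FPKM in the libraries labelled knockout and 3.23 ± 0.374 FPKM in parental libraries (SD, n = 3). Its parental mean was 22.0-fold higher, with a log2 fold change of -1.88 (SE 0.12, limma with Benjamini-Hochberg adjustment, adjusted p = 1.31e-05) and of -2.60 with correction. SOST, which binds LRP5 and LRP6, was at 0.982 ± 0.0848 and 2.62 ± 0.316 FPKM (-0.87). NOTUM and SOST passed the filter on low values only through the parental libraries.

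Of the cytoplasmic components, 3 of 14 tested rose in PLC/PRF5 with EGR1 and 0 fell. APC, the tumor suppressor of the destruction complex, was at 4.72 ± 0.328 FPKM with EGR1 and 2.05 ± 0.390 FPKM with the vector (log2 fold change 0.91, SE 0.12, limma with Benjamini-Hochberg adjustment, adjusted p = 0.00124), and 0.53 with GC and length correction. DVL1, a Dishevelled protein, and TNKS2, a tankyrase that promotes the turnover of axins, rose by 0.37 and 0.44 (0.56 and 0.24 with correction). CTNNB1, which encodes beta-catenin, was at 133 ± 6.19 and 116 ± 9.45 FPKM and did not pass (limma with Benjamini-Hochberg adjustment, adjusted p = 0.139). In MHCC97H, 4 of 12 were higher and 6 lower in the libraries labelled knockout, and 3 and 2 with correction. TNKS2 was at 5.05 ± 1.17 FPKM there against 12.8 ± 2.11 FPKM in parental libraries (log2 fold change -1.20, and -0.80 with correction), and DVL2 at 26.2 ± 2.38 against 13.3 ± 1.08 FPKM (0.93, and 0.35 with correction). CTNNB1 was at 66.6 ± 5.24 against 80.7 ± 5.92 FPKM, a call lost with correction (-0.27, then 0.01). The kinase GSK3B likewise moved from -0.41 to 0.05, and APC, which did not pass (-0.07, limma with Benjamini-Hochberg adjustment, adjusted p = 0.741), was higher with correction (0.59, adjusted p = 0.00373).

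Of the nuclear partners of beta-catenin, 0 of 9 tested rose and 2 fell in PLC/PRF5: CTNNBIP1, an inhibitor of the binding of beta-catenin to TCF factors (log2 fold change -0.65), and the corepressor TLE2 (-0.45). With GC and length correction 1 rose and 3 fell. In MHCC97H, 5 of 8 were higher and 1, TCF7L2, lower in the libraries labelled knockout, but with GC and length correction 2 were higher and 2 lower. The coactivators BCL9 and BCL9L were at 8.72 ± 1.74 against 4.12 ± 0.483 FPKM and at 28.7 ± 2.83 against 15.8 ± 2.05 FPKM (log2 fold changes 0.91 and 0.83, and 0.71 and 0.37 with correction). CTNNBIP1 was higher as well (0.55), a call lost with correction (0.07).

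Of 6 other reported target genes tested in PLC/PRF5, 1 rose and 2 fell with EGR1. CD44, a hyaluronan receptor, rose to 2.56 ± 0.508 from 0.831 ± 0.211 FPKM (log2 fold change 0.96), while the transcription factors SOX9 and ASCL2, which fell, had log2 fold changes of -0.87 and -0.62 (-0.86 and -0.35 with GC and length correction). Of 5 tested in MHCC97H, 2 were higher and 1 lower in the libraries labelled knockout, and 2 and 3 with correction. CD44 was at 91.9 ± 9.54 against 49.7 ± 2.32 FPKM (0.87, and 1.06 with correction) and SOX9 at 7.48 ± 0.624 against 5.21 ± 0.581 FPKM (0.45, and 0.27 with correction). The cell cycle gene CCND1 was lower, at 42.8 ± 2.69 against 55.7 ± 1.25 FPKM (-0.38). CD44 was called higher in both comparisons and SOX9 in opposite directions, where 29.6% and 66.3% of all genes were called. The share of all genes called in the same direction in both was not counted. In PLC/PRF5, CD44 passed the filter on low values only through the EGR1 libraries.

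Besides GLUL, 3 genes of perivenous hepatocytes were tested in MHCC97H, of which 0 were higher and 2 lower in the libraries labelled knockout. OAT, which converts ornithine, was at 9.08 ± 1.58 against 23.0 ± 3.63 FPKM (log2 fold change -1.25, and -0.94 with correction). AHR, a ligand-activated transcription factor, was lower (-0.41), but higher with correction (0.25, limma with Benjamini-Hochberg adjustment, adjusted p = 0.0159). In PLC/PRF5, 2 of 3 fell with EGR1, LHPP (-0.76) and OAT (-0.30, limma with Benjamini-Hochberg adjustment, adjusted p = 0.0497, and -0.47 with correction). Of 2 periportal genes tested in MHCC97H, 1 was lower and 1 higher in the libraries labelled knockout. ASS1, an enzyme of the urea cycle, was at 3.00 ± 0.335 FPKM in the libraries labelled knockout and 11.03 ± 1.17 FPKM in parental libraries (-1.59), and CDH1, which encodes E-cadherin, at 3.57 ± 0.504 and 2.39 ± 0.0987 FPKM (0.42). The summed level of the hepatocyte markers was higher in the EGR1 libraries than with the vector and higher in the libraries labelled knockout than in parental ones, and its part in these values was not tested.

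**Figure D3:**
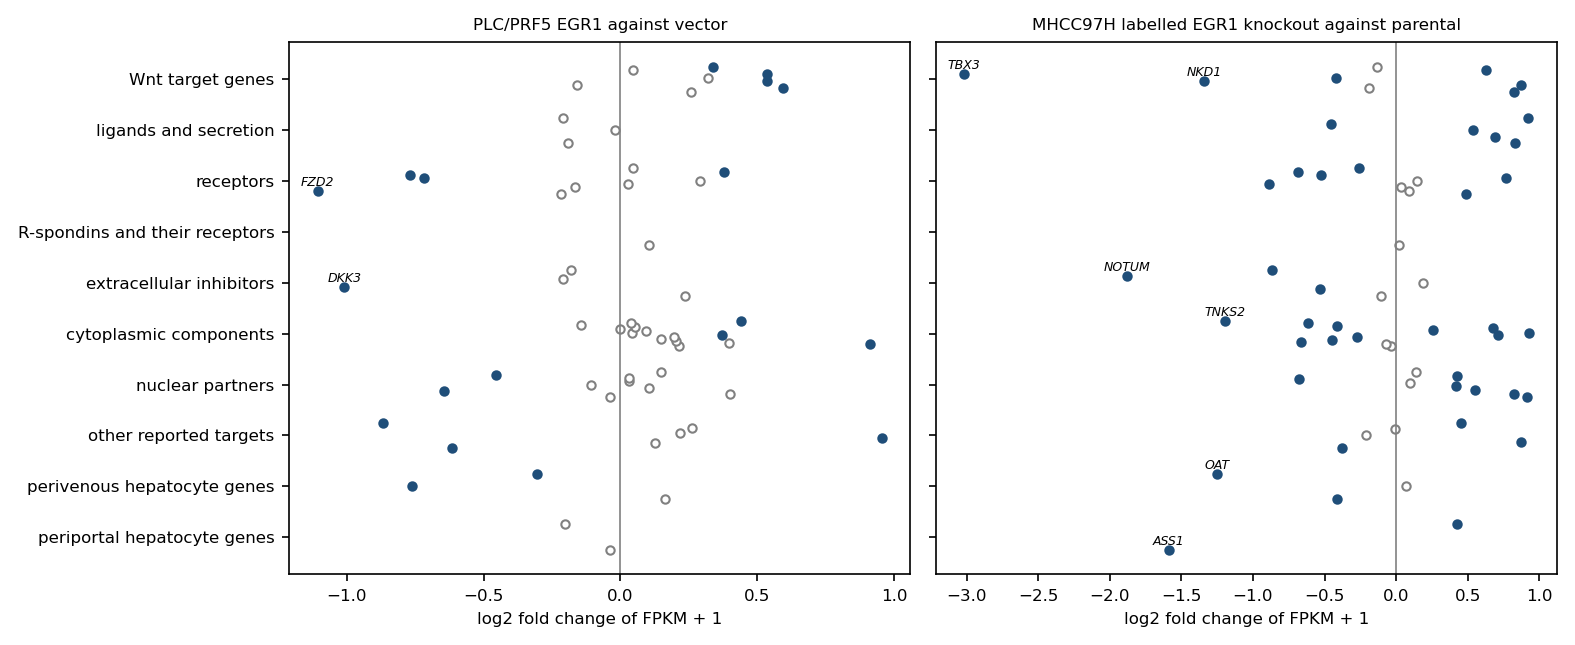
Log2 fold change of FPKM + 1 (horizontal axes) of each tested gene, 1 point per gene, for the members (top row) and the 9 pathway lists (rows) in PLC/PRF5 (left) and MHCC97H (right), filled where the adjusted p was under 0.05 and named where the change was 1 or more in size. TBX3 and NOTUM lie farthest left in MHCC97H, at -3.02 and -1.88, and the tested ligand genes there lie mostly to the right of 0.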

How the data were processed

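RNA-seq values of 12 libraries were analysed. The authors deposited FPKM per gene name, made with StringTie on hg38 per the submitters' processing notes, from oligo(dT) mRNA libraries treated with duplex-specific nuclease. The aligner, versions and annotation are not given in the sources used here, and neither is the depth. The members and all lists were chosen with earlier results of these data known. Each cell line was fitted alone with limma 3.58.1 in R 4.3.3, on log2(FPKM + 1) with a variance trend, for genes averaging 1 FPKM or more, 2-sided, with Benjamini-Hochberg adjustment over all genes and a threshold of 0.05. No covariate was used. The GC and length correction was a spline with 5 degrees of freedom on transcript GC content and log length, for the 97.6% of 19932 names, other than 3031 assembled loci, that matched GENCODE release 29. The fits were tested on simulated data. Named were all members, EGR1, CTNNB1, APC, GSK3B, TCF7L1 and TCF7L2, and from each pathway list up to 4 called genes with non-overlapping groups and the largest changes. Others (LGR4, WNT5A) were named after their values were seen. Promoter sequences came from RefSeq (GRCh38.p14). Alternatives were another pseudocount, no filter, other scalings, no trend, a pooled fit, a replicate block, the GC and length correction, a stricter threshold and leaving out each library. Plots were drawn with matplotlib 3.10.9.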

Additional observations from a re-analysis of the deposited data

Results flagged for a closer look

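The log2 fold change of EGR1 against vector in PLC/PRF5 minus that of labelled knockout against parental in MHCC97H singled out 7 members, whose changes differed between the comparisons. EGR1 mRNA was higher in both the EGR1 libraries and those labelled knockout, the latter not past the threshold with GC and length correction. Overexpression and editing are not a single treatment in 2 lines. The difference was 3.55 for TBX3, 0.78 for AXIN2, 0.74 for RNF43 and 0.47 for ZNRF3, whose changes were higher in PLC/PRF5. It was -1.03 for GLUL, -0.58 for TCF7 and -0.56 for AXIN1, whose changes were higher in MHCC97H. With GC and length correction, AXIN1 (-0.01, limma with Benjamini-Hochberg adjustment, adjusted p = 0.946) and TCF7 (-0.28, adjusted p = 0.0994) no longer passed, and TCF7 also did not after scaling to a common total (-0.46, adjusted p = 0.0541). The other 5 passed under both. No value of a library was tested as an outlier, since groups of 3 are too small.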

How the results depend on the processing

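The number of members called in PLC/PRF5, 4, became 2 after quantile normalization and 2 at an adjusted p under 0.01, and ranged from 2 (without EGR1 replicate 3) to 4 when each library was left out. The number of pathway genes called there, 15, was 9 at an adjusted p under 0.01 and ranged from 9 (without EGR1 replicate 2) to 16 when each library was left out. Over all genes in PLC/PRF5, 3457 were called, 1468 at an adjusted p under 0.01, and between 1919 and 4007 when each library was left out, with 1919 without EGR1 replicate 2, 2208 without EGR1 replicate 3 and 2246 without vector replicate 3. The EGR1 fold change in MHCC97H, 0.83, was 0.42 with GC and length correction. Changes near 0 turned sign: TCF7 in PLC/PRF5 was -0.12 after quantile normalization and between -0.045 and 0.12 when each library was left out, and ZNRF3 between the lines was 0.10 after scaling to a common total, 0.091 with GC and length correction, with or without the replicate block, and between -0.039 and 0.040 when each library was left out. The cause was not tested. The replicate number as a block gave the same counts of members called (4 in PLC/PRF5, 6 in MHCC97H, 7 between the lines), with 3253, 7987 and 9249 genes called in all, and of the pathway genes named, OAT in PLC/PRF5 went from an adjusted p of 0.0497 (limma with Benjamini-Hochberg adjustment) to 0.0606. Residuals of libraries with the same number correlated between -0.39 and 0.47 over the comparisons. In MHCC97H these pairs averaged 0.176, against -0.087 for other pairs, with 0.47 for replicate 3. In PLC/PRF5 they averaged -0.024, against 0.0098. Residuals were taken from the group mean of each gene. The average over other pairs is thus nearly set by that over same-numbered pairs, and is not a separate comparison. Groups of 3 cannot decide whether the numbers pair libraries. Counting error is unknown for FPKM, and genes near 1 FPKM, such as LGR5, are limited most.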

Other observations

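Some genes of the R-spondin and ligand lists were below the filter or absent from 1 line. TNFRSF19, a reported beta-catenin target chosen here after its values were seen, was listed at 0 in all 3 libraries labelled knockout and had a mean of 0.515 ± 0.129 FPKM (SD, n = 3) in parental libraries. WNT5A was listed at 0 in all 6 PLC/PRF5 libraries. WLS was at 0.183 ± 0.112 FPKM in vector PLC/PRF5 and 11.3 ± 0.870 FPKM in parental MHCC97H (SD, n = 3). The receptors ROR1 and FZD6 were at 0.268 ± 0.144 and 0.277 ± 0.0327 FPKM in vector PLC/PRF5, and at 9.63 ± 0.794 and 11.4 ± 2.09 FPKM in parental MHCC97H (SD, n = 3). The corepressor TLE2 had the opposite order, at 8.70 ± 0.493 FPKM in vector PLC/PRF5 and 0.0869 ± 0.0465 FPKM in parental MHCC97H (SD, n = 3).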
